A study of Oryza sativa with 4 samples.

Results

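Of the 1442 regions in the authors' confident table for the rice protein OsMADS2, 330 (22.9%, Wilson 95% interval 20.8 to 25.1) lay between genes and touched none. They were taken by position: every gene row of such a region in the deposited table reads upstream or downstream, and no row reads as an overlap with a gene start, a gene end or a gene body. Every region of that table has a listed gene within 4 kb, so 22.9% is a share of regions near genes only. Any region farther from all genes would not be counted, and the share is not that of all OsMADS2 binding. The 330 regions carry 582 region-gene rows and 554 genes, of 2589 genes in the table. By their rows, 134 regions (40.6%, 35.4 to 46.0) were upstream of every listed gene, 66 (20.0%, 16 to 24.6) were downstream of every listed gene, and 130 (39.4%, 34.3 to 44.8) were upstream of some genes and downstream of others. These 3 classes are called upstream-only, downstream-only and mixed. Intervals cover counting error alone, since regions are not replicates, and no test was made over regions.

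OsMADS2 is a MADS-domain transcription factor of the PISTILLATA group. In flowering plants such proteins bind DNA as dimers with other MADS proteins and are known for specifying petals and stamens, and in grasses the lodicules that open the floret in place of petals. Plant transcription factors are often found close to gene starts, but sites between genes, before a promoter or beyond a gene's end, are also known to act on flanking genes. A region between genes can therefore have more than 1 candidate gene, and distance and gene direction are the usual guides to it.

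The data are chromatin immunoprecipitations with sequencing (ChIP-seq) from young panicles of 0.3 to 2 cm of the wild-type rice line TP309. The 4 libraries fall into 2 groups of 2: OsMADS2 antibody (IP5 and IP6) and a mock immunoprecipitation with rabbit IgG (mock 5 and mock 6), where the numbers are biological replicates per the file headers. Whole panicles were used, so the cells that carried a binding event cannot be told apart. Uniquely mapped reads ran from 9142837 in IP5 to 16742118 in mock 6, with 15934402 in IP6 and 13248694 in mock 5. The authors deposited 3 peak lists: IP6 over mock 6, and IP5 over each mock in turn. IP5 over mock 5 and IP6 over mock 6 share no library, and they are called the 2 replicate calls. Where 3 folds are given for a region, IP5 over mock 5 comes first, IP5 over mock 6 is next, and the last is IP6 over mock 6.

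The regions were spread over all 12 chromosomes. Chromosome 1 held 51 of them, chromosome 3 held 45 and chromosome 11 held 16, the fewest. Their share of a chromosome's confident regions ran from 16.8% on chromosome 5 to 27.8% on chromosome 8. The median gap to the nearest other confident region was 47240 bp, and 42 of the 330 had another confident region within 2000 bp. Whether the regions cluster was not tested, since no gaps under an even scatter were set beside these values.

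Upstream positions outnumbered downstream ones. Among the 200 regions with rows of only 1 kind, 67.0% (60.2 to 73.1) were upstream. By the nearest gene alone, 204 of the 330 regions (61.8%, 56.5 to 66.9) lay before a gene start and 126 (38.2%) beyond a gene end. Over all 582 rows the split was 338 upstream and 244 downstream, or 58.1% (54.0 to 62.0) upstream. How many gene starts and gene ends in the genome have free sequence beside them was not computed, so no expected split can be set beside these shares.

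Upstream-only regions also had a shorter median distance to their genes than downstream-only ones. Distance here is the number of bases between the region's edge and the gene's edge as deposited, and the nearest gene stands for the region. The median was 909.5 bp for upstream-only regions (order-statistic 95% interval 725 to 1164, quartiles 499.3 and 1822), 1325.5 bp for downstream-only regions (891 to 2039, quartiles 605.8 and 2555) and 699.5 bp for mixed regions (525 to 921). The intervals of the upstream-only and downstream-only medians overlap. At 2000 bp or more from the nearest gene stood 22.4% (16.2 to 30.2) of upstream-only, 39.4% (28.5 to 51.5) of downstream-only and 13.1% (8.3 to 19.9) of mixed regions. Within 499 bp the upstream-only and downstream-only shares were close, at 25.4% (18.8 to 33.4) and 22.7% (14.3 to 34.2), against 40% of mixed regions. A mixed region has at least 2 listed genes, which by itself brings the nearest one closer.

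**Figure D1:**
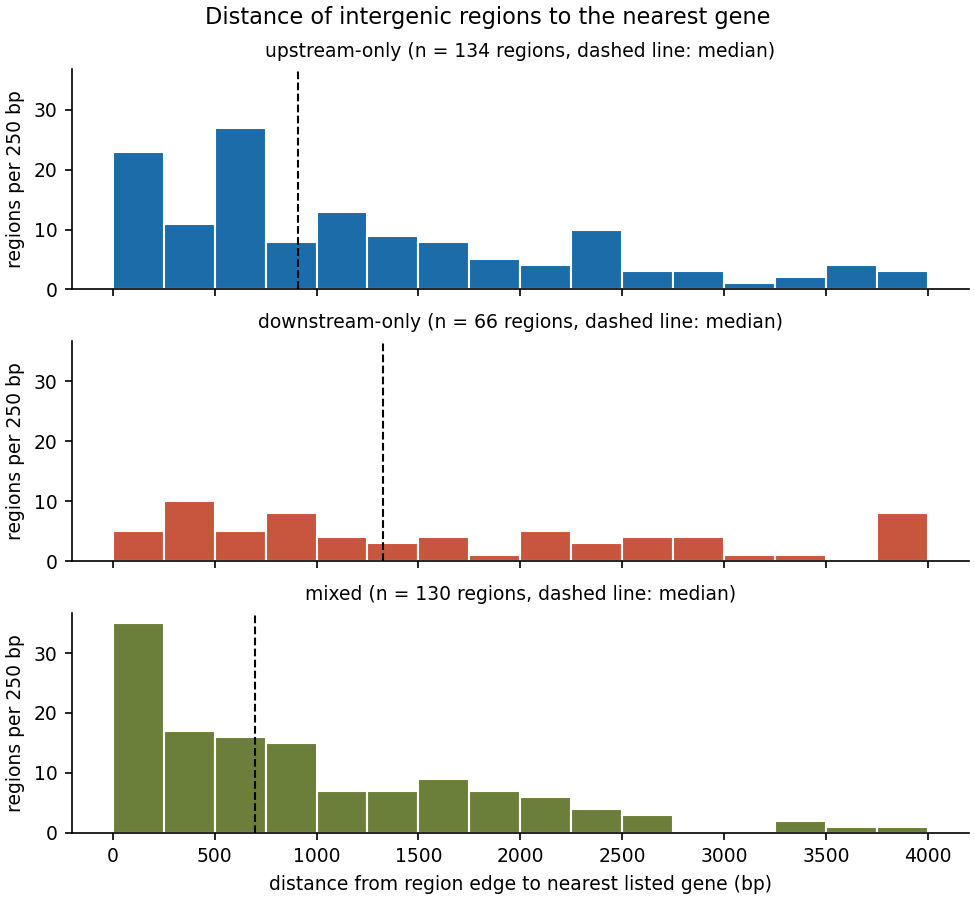
Number of regions (vertical axis, per 250 bp) by distance in bp from the region's edge to the nearest listed gene (horizontal axis), for upstream-only, downstream-only and mixed regions, with the median dashed. Upstream-only regions peak in the bins 0 to 250 bp (23 regions) and 500 to 750 bp (27 regions), while downstream-only regions are spread out, with 8 in the last bin.

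The upstream share showed no steady course with distance. Of the 63 regions within 249 bp of a gene, 44 had a gene start as the nearest edge (69.8%, 57.6 to 79.8). Between 250 and 499 bp it was 19 of 38 (50%), between 1000 and 1999 bp 52 of 77 (67.5%), and between 3000 and 3999 bp 12 of 24 (50%, 31.4 to 68.6). The intervals of these bins overlap. In the deposited table no region is more than 3999 bp from a listed gene, and all 2862 pairs of a region and a table gene within that distance are listed.

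Many of these regions had listed genes on 1 side only. In 206 regions (62.4%, 57.1 to 67.5) every listed gene lay to 1 side, so that no gene of the table stood within 4 kb on the other. A single gene was listed for 153 regions, 2 genes for 115 and 3 or more for 62. Of the 554 genes, 318 were the nearest gene of some region and 236 were listed only as a farther gene.

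The other 124 regions had genes on both sides, and the pair of nearest flanking genes gives an orientation. Tandem pairs, in which the region follows the end of one gene and precedes the start of the next, were the most numerous with 68 (54.8%, 46.1 to 63.3). Divergent pairs, whose starts both face the region, numbered 36 (29.0%, 21.8 to 37.6), and convergent pairs, whose ends both face it, 20 (16.1%, 10.7 to 23.6). With gene rows within 2 kb alone, 29 tandem, 13 divergent and 1 convergent pairs were left, so the shares depend on the window. The orientation of all neighbouring gene pairs in the rice genome was not computed. Within tandem pairs the region was nearer to the start in 32 and nearer to the end in 36 (47.1% and 52.9%, with an interval of 35.7 to 58.8 for the start). The median distance was 1290 bp to the start (936 to 1773) and 1232.5 bp to the end (773 to 1644), so no preference for the start showed there. In divergent pairs the nearer start was at a median of 542 bp (288 to 1020) and the farther at 2387 bp (1960 to 2733). In convergent pairs the nearer end was at 674 bp (333 to 1520) and the farther at 2807.5 bp. The gaps between flanking genes had medians of 3651.5 bp (divergent), 3720.5 bp (tandem) and 4231 bp (convergent), lengths that the 4 kb limit on each side bounds from above.

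**Figure D2:**
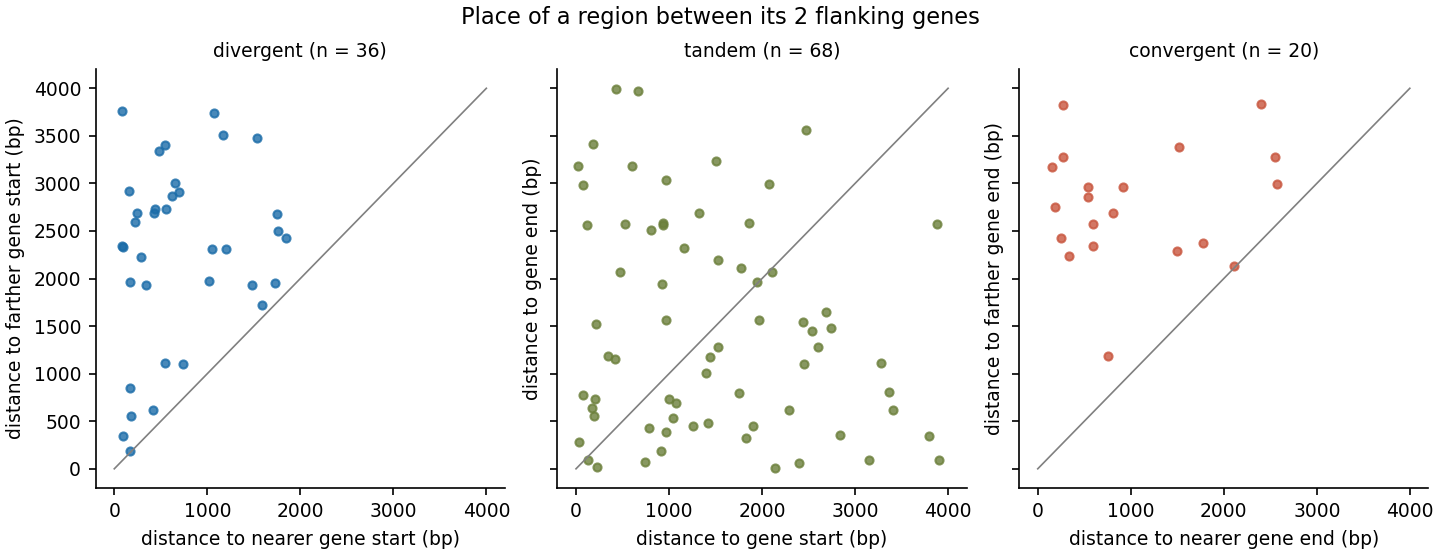
Each point is 1 of the 124 regions with genes on both sides, with its distance in bp to the 2 flanking genes on the axes; the line marks equal distance. Tandem regions (n = 68) fall on both sides of the line, 32 nearer to a start and 36 nearer to an end.

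In 43 mixed regions both kinds of gene lay on the same side. In 36 of these the nearest upstream and the nearest downstream gene overlap each other in the table. Whether such a region is upstream or downstream then depends on which gene of an overlapping pair is taken.

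Strength was described by the authors' fold enrichment, the deposited value of the highest peak that overlaps a region by 1 bp or more, for IP over mock in 1 pair of libraries. Every confident region has a peak in each list by the authors' rule, so presence in the lists is no result, and a fold carries no replicate error. Median folds of the 330 regions were 3.24 in IP5 over mock 5 (3.11 to 3.44), 3.81 with mock 6 as its control (3.69 to 3.97), and 3.08 for IP6 (3.02 to 3.22). The other 1112 confident regions had 3.32, 3.85 and 3.08. In each list the interval of the intergenic regions covered the median of those that touch genes. Upstream-only regions had medians of 3.23 and 3.16 in the replicate calls, and downstream-only regions 3.45 and 3.16, with overlapping intervals.

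A fold of at least 4 was reached by 100 of the 330 regions in IP5 over mock 5 (30.3%, against 29.9% of all 1442 regions). In IP5 over mock 6 it was 139 (42.1%, against 42.8%), and in IP6 over mock 6 60 (18.2%, against 18.0%). In both replicate calls it was 30 (9.1%, 6.4 to 12.7, against 7.56%). All 4 shares are near the background. By class, 10 upstream-only (7.5%), 8 downstream-only (12.1%, 6.3 to 22.1) and 12 mixed regions (9.2%) reached it in both calls. Without replicate 5 the count was 60 and without replicate 6 it was 100.

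A confident region needs peaks of all 3 lists at 1 place, so direct overlap of the 2 replicate calls is largely fixed by the authors' rule. A peak of IP5 over mock 5 directly overlapped a peak of IP6 over mock 6 in 316 of the 330 regions (95.8%, 93.0 to 97.5), against 93.0% of all 1442 regions. In the other 14 the peaks of the 2 calls did not overlap directly. Whether a peak of IP5 over mock 6 joined them was not checked. The lower fold of the 2 calls had a median of 2.70. IP6 gave the higher fold in 145 regions (43.9%, against 42.9% of all 1442). Across the 330 regions Spearman's rho of the 2 folds was 0.21, against 0.12 over all 1442, a description over regions of the same 2 library pairs. In 11 regions IP5 was at least 2 times IP6 and in 7 the reverse, against 58 and 29 of all 1442.

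**Figure D3:**
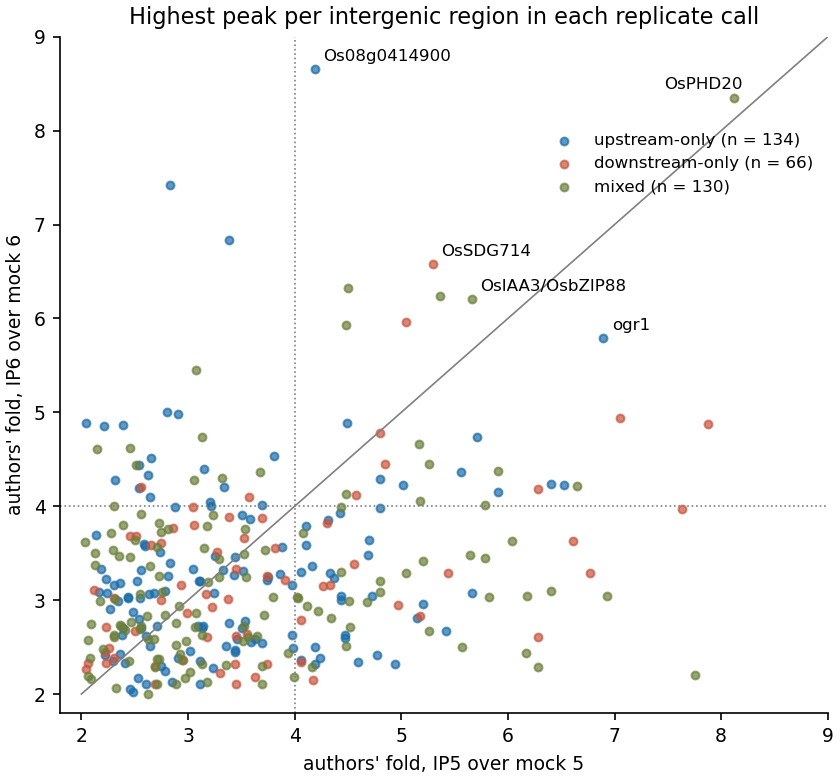
The authors' fold of the highest peak in each of the 330 regions, in IP5 over mock 5 (horizontal axis) and IP6 over mock 6 (vertical axis), coloured by class; dotted lines mark a fold of 4 and the solid line equal folds. The 30 regions in the upper right passed 4 in both, with the OsPHD20 region at 8.12 and 8.35 the farthest out.

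The regions were narrower than those that touch genes, with a median width of 441 bp (408 to 486) against 591.5 bp (559 to 619) for the other confident regions. Width is not independent of the choice of regions, because a wider region is more likely to reach a gene. More than 1 peak was held by 8, 9 and 22 of the 330 in the 3 lists, in the order given above, and by 72, 90 and 137 of all 1442 regions.

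The genes named below were chosen by rule: the 5 regions of each class with the highest lower fold of the 2 replicate calls, the closest and farthest regions, and members of gene lists. The leading upstream-only region lay 232 bp before the start of ogr1, a gene for a pentatricopeptide repeat protein of mitochondrial RNA editing (chromosome 12, 9777146 to 9777543). Its folds were 6.90, 5.36 and 5.79. OsIRX10, a gene of xylan synthesis in secondary walls, had a region 2436 bp before its start (chromosome 1, 40637200 to 40637580), with folds of 5.71 over mock 5 and 2.96 over mock 6 for IP5, and 4.73 for IP6. The IP5 fold there differed by mock more than IP5 and IP6 differed. A second region, 854 bp before the same start, was weaker (2.81, 3.22 and 3.26), so OsIRX10 has 2 regions in its upstream sequence and none in the gene.

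OsIQD14, from the calmodulin-binding IQD family, had a region 2406 bp upstream with even folds of 4.50, 4.78 and 4.88. The CKS1 gene, a small subunit of cyclin-dependent kinases in the cell cycle, had a region 614 bp upstream (chromosome 3, 2570925 to 2571179) with 4.80, 2.83 and 4.29. The fifth, 3526 bp before Os03g0364500, had 5.56, 5.28 and 4.37. Of these 5 upstream-only regions, 2 lay within 1 kb of the start and 3 beyond 2 kb.

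Beyond gene ends, the leading region stood in a convergent gap between OsSDG714, a gene for a histone H3 lysine 9 methyltransferase, and OsHMP8 (chromosome 1, 40665210 to 40665953). It was 814 bp past the end of OsSDG714 and 2687 bp past that of OsHMP8, with folds of 5.29, 4.92 and 6.58. OsSDG714 also has a region across its start, with 2.63, 3.59 and 2.92, which was the weaker of the 2 in each list. A region 321 bp past Os12g0614851 and 1577 bp past Os12g0614800 had nearly equal folds of 4.80, 4.80 and 4.78. Both identifiers carry the symbol OsWAK126, of the wall-associated kinase family.

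The other 3 leading downstream-only regions had no symbol beside them. Os01g0277100 had a region 435 bp downstream with 7.05, 5.66 and 4.94, and Os09g0282701 one 659 bp downstream with 7.88, 5.75 and 4.88. In both, IP5 was higher than IP6 with either mock. Os04g0562800 had 5.05, 4.71 and 5.97 at 1103 bp, where IP6 was the highest.

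**Figure D4:**
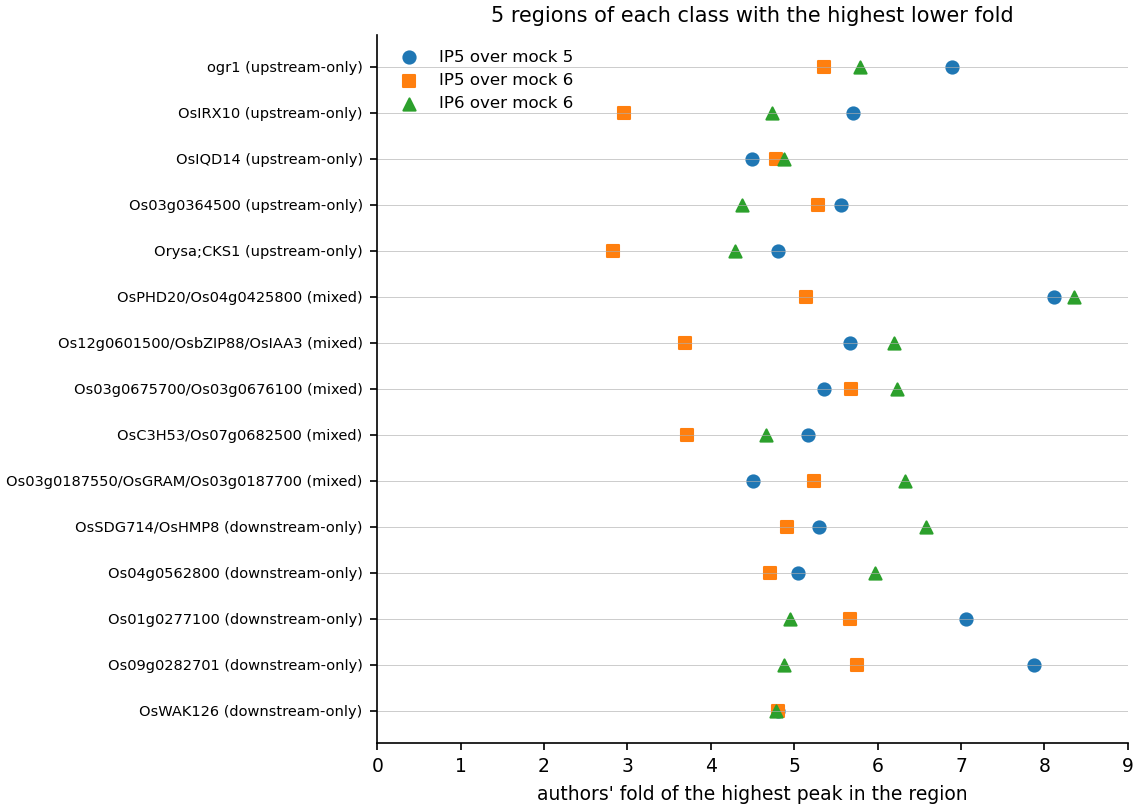
The authors' fold (horizontal axis, from 0) in each of the 3 lists for the 5 upstream-only, 5 mixed and 5 downstream-only regions with the highest lower fold of the 2 replicate calls; labels give the listed genes, nearest first. OsIQD14 (4.50 to 4.88) and OsWAK126 (4.78 to 4.80) have close folds in all lists, while OsIRX10 drops to 2.96 in IP5 over mock 6.

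By the lower fold of the 2 replicate calls, the highest of the 330 regions was mixed. It had folds of 8.12, 5.14 and 8.35 and lay 2309 bp past the end of OsPHD20, a PHD-finger gene, and 2711 bp before the start of Os04g0425800 (chromosome 4, 21013047 to 21013762). OsPHD20 and Os04g0425800 overlap on opposite strands on the same side of the region, and no table gene stood within 4 kb on the other. The region is thus downstream of one and upstream of the other by nearly the same distance. In IP5 over mock 6 other regions were higher, up to 7.53, and in IP6 over mock 6 a region 65 bp before Os08g0414900 was higher, at 8.66.

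The region that the table lists for OsIAA3, an Aux/IAA repressor of auxin responses, lay 3543 bp past that gene's end, farther from it than from 2 others (chromosome 12, 25330655 to 25331048). It stands between the facing starts of Os12g0601500, at 1585 bp, and OsbZIP88, a basic leucine zipper gene, at 1725 bp. Its folds were 5.66, 3.69 and 6.20. A second region in the same gap, 624 bp before OsbZIP88, had 2.54, 3.82 and 4.44. The first region was the higher in both replicate calls, while in IP5 over mock 6 the 2 regions had nearly the same fold.

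Of the other leading mixed regions, that of OsC3H53, a CCCH zinc-finger gene, began 18 bp past the gene's end, with 5.16, 3.72 and 4.67. A further region, 3583 bp before its start, had 2.88, 4.19 and 2.76. Another confident region crossed the start and covered most of the gene, with 3.02, 4.67 and 4.84. In IP5 over mock 6 and IP6 over mock 6 it was higher than the region past the end. OsGRAM, a GRAM-domain gene, had a region 347 bp upstream with 4.50, 5.24 and 6.32, which was also 77 bp past the end of Os03g0187550. A separate region crosses the OsGRAM start and lies inside Os03g0187550, with 4.47, 5.98 and 2.57. A tandem gap between Os03g0675700 (623 bp from its end) and Os03g0676100 (2287 bp from its start) had 5.36, 5.68 and 6.24. A region inside Os03g0675700 was weaker (2.87, 4.49 and 2.30).

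**Figure D5:**
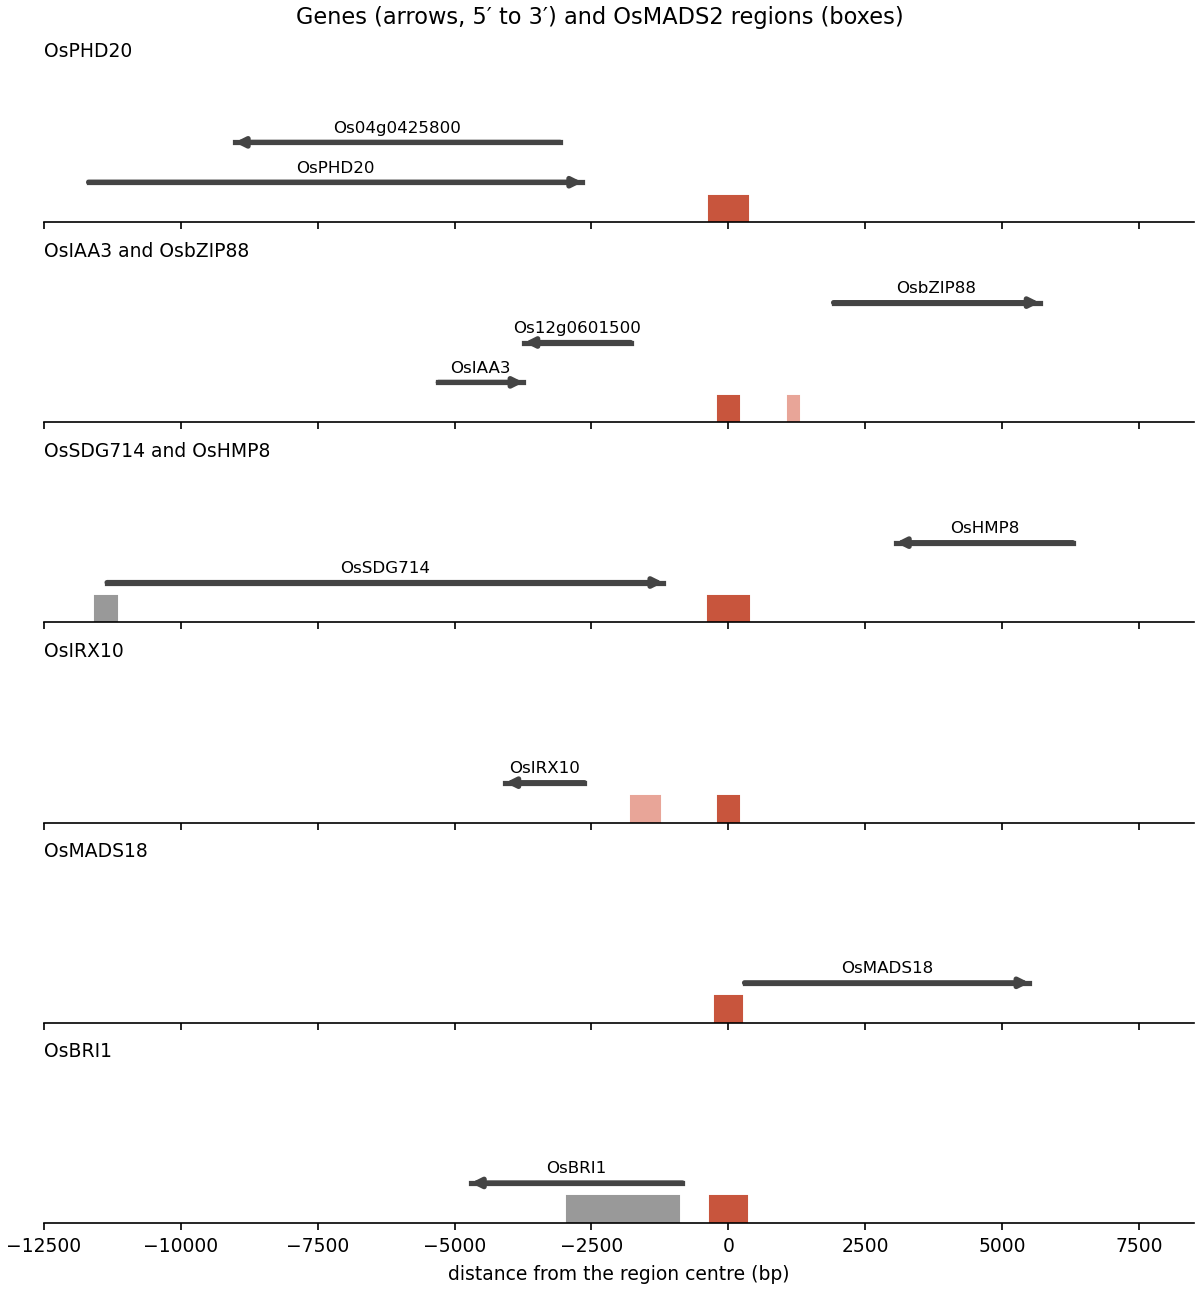
Genes (arrows, from start to end) around 6 regions, drawn to scale by distance in bp from the centre of the region (dark red box); light red boxes are other intergenic regions and grey boxes are confident regions of the same genes that touch a gene. The OsPHD20 region lies beside 2 overlapping genes, past the end of OsPHD20 and before the start of Os04g0425800. The OsIAA3 region lies between 2 facing starts, and OsBRI1 has a grey box inside the gene.

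At the edge of the choice, the closest regions were 0 bp from the start of OsFbox656 (folds 2.36, 2.59 and 2.43), 7 bp past Os10g0552900 (6.40, 5.22 and 3.10) and 12 bp past OsABCG47, an ABC transporter gene (6.28, 4.58 and 2.61). Just outside it, a region overlapped OsFLA26 by 4 bp at its start. The farthest were 3977 bp before Os02g0620000 (5.02, 5.25 and 4.23), 3944 bp past Os08g0414900 (3.23, 3.53 and 2.93) and 3943 bp past Os08g0116400 (5.17, 3.11 and 2.83). The median lower fold was 2.60 (2.5 to 2.7) within 499 bp of a gene and 2.76 (2.5 to 3.0) from 2000 bp on, with overlapping intervals.

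Gene lists were matched by symbol within the table, where 554 of 2589 genes (21.4%) have an intergenic region, and that share is the one to set beside each list. Of 3 MADS-box genes in the table, 1 had such a region: OsMADS18, of the APETALA1 and FRUITFULL group, at 47 bp before the start (chromosome 7, 24787931 to 24788428), where the 3 folds were 3.22, 4.22 and 4.00. The name OsMADS2 is among the synonyms deposited for this entry, but only the name is shared. The immunoprecipitated OsMADS2 is of the PISTILLATA group and is not the product of this gene. No flowering time gene (0 of 3) had one. Lists this small cannot be told from the share over all genes.

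Of 10 genes matched as SPL or panicle architecture genes, 3 had an intergenic region. OsSPL13, of the SBP-domain family, had one 1914 bp upstream (3.72, 2.57 and 2.84) beside 2 regions that touch it, which reached 5.56 in the gene body and 3.45 across the start in IP5 over mock 5. OsSPL2 had one 3583 bp past its end (2.51, 2.69 and 3.64), nearer to the start of Os01g0922700 at 1894 bp. The other, OsSPL28 (888 bp downstream, 2.91, 2.64 and 2.93), matches by its letters only, since its synonym AP1M1 names an adaptor protein subunit.

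Hormone genes held 3 of 18 auxin genes. OsARF2, an auxin response factor gene, had a region 57 bp before its start with folds of 2.04, 4.41 and 4.89, low in IP5 over mock 5 alone. A region inside the gene had 3.80, 5.72 and 3.71. OsIAA10 had a region 3404 bp upstream (2.41, 2.27 and 2.68), which is nearer to the end of the gene listed as OsKAT1 (615 bp), while a separate region crosses the OsIAA10 start (4.30, 2.31 and 2.92).

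The list of gibberellin, cytokinin and brassinosteroid genes had 6 of 20, but OsGAUT14, OsGATL8 and OsGATA12 match it by their letters and are not hormone genes by name. Of the rest, OsBRI1, the brassinosteroid receptor gene, had a region 495 bp upstream with 2.53, 5.03 and 2.17, and another inside the gene with 2.66, 3.69 and 3.44. OsHK4, a histidine kinase receptor gene for cytokinin, had one 120 bp upstream with 2.61, 2.96 and 2.11. Both were under the medians of the set in each replicate call. OsGASR2, a gibberellin-stimulated transcript family gene, had one 3235 bp past its end (3.35, 6.03 and 2.30). That region is nearer to the start of prx55, at 1507 bp. A separate region spans the whole OsGASR2 gene (2.33, 3.62 and 3.69).

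Among transcription factor families the AP2/ERF genes had 7 of 21, the NAC genes 4 of 10, the bZIP genes 3 of 8, the WRKY genes 2 of 14, the bHLH genes 1 of 13 and the homeobox genes 1 of 6. The counts are small, and no test was made of any list. OsERF053 had a wide region 3621 bp upstream with 2.83, 4.25 and 7.42, the IP6 fold being more than 2 times that of IP5 over mock 5. A separate region crosses the OsERF053 start (2.63, 2.90 and 3.06). OsERF074 (1683 bp upstream) had 4.72, 4.42 and 3.05, and OsERF065 (2307 bp upstream) 4.37, 5.00 and 3.24. The OsERF065 region is nearer to the start of Os07g0617100, at 1052 bp. Another confident region spans the whole OsERF074 gene (4.50, 3.33 and 3.85). OsAP2-39 had a region 600 bp upstream with 3.08, 3.72 and 2.86. Of the 7 AP2/ERF genes, 6 had the region upstream, against 58.1% upstream over all 582 rows. A count this small cannot be told from that share.

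HOX10, a class III homeodomain-leucine zipper gene of leaf and organ polarity, had a region 204 bp upstream with 4.22, 3.50 and 2.89. ONAC057 had one 1071 bp upstream (3.38, 3.17 and 2.76), OsNAC5 one 875 bp upstream (2.41, 3.97 and 2.33), ONAC037 one 2920 bp upstream (3.02, 2.44 and 2.46) and ONAC110 one 2960 bp past its end (2.65, 5.66 and 3.58). ONAC037 also has a region inside the gene (2.02, 3.82 and 3.08) and one across its start (3.845, 4.67 and 2.69). The ONAC110 region is 535 bp from the end of the histone gene H4, and its peaks in the 2 replicate calls did not overlap directly. OsWRKY8 (3362 bp upstream, 3.18, 4.22 and 3.79) and OsWRKY31 (3804 bp upstream, 2.17, 2.96 and 3.09) were both distant. The OsWRKY8 region is nearer to the end of Os05g0583075, at 2549 bp.

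OsbZIP84 and OsbZIP18 had regions close to their starts, at 156 bp (2.08, 2.96 and 2.39) and 164 bp (2.45, 2.96 and 2.06). OsbHLH176 had one 343 bp past its end (4.06, 3.01 and 2.34). The F-box genes, which name substrate adaptors of ubiquitin ligases, had 8 of 33, led by OsFbox253 (1438 bp upstream, 4.80, 3.73 and 3.20) and OsFbox219 (1314 bp upstream, 4.68, 4.03 and 2.98). The OsFbox253 region is nearer to the end of Os05g0177500, at 1179 bp. The OsFbox219 region is nearer to the end of Os04g0479550, at 333 bp. OsFbox219 also has a region inside the gene, with 5.05, 2.96 and 2.11. The lists of MYB (0 of 3), nitrogen transport (0 of 2) and beta-glucosidase genes (0 of 3) had no intergenic region, and of 3 PHD-finger genes only OsPHD20 did.

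The authors' deposited table of enriched gene ontology terms, drawn from the genes near confident regions, names 606 genes of the region table. Its terms were thus already selected on these data. Of the 606 genes, 128 (21.1%) had an intergenic region, against 21.4% of all genes. The following terms were chosen after their values were seen. Cellular response to nitrogen starvation had 6 of its 14 genes beside an intergenic region, each as the nearest gene. Both genes of the term NADH glutamate synthase activity, an enzyme that assimilates ammonium, were among them: OsGLT1 at 739 bp before the start (4.60, 3.58 and 2.34) and OsGLT2 at 214 bp before the start (4.94, 2.81 and 2.32). Their folds were high over mock 5 and low in IP6. OsCIPK02, a kinase gene of calcium signalling, had a region 3907 bp past its end (6.28, 3.31 and 4.18), and OsJAZ6, a repressor of jasmonate responses, one 1145 bp upstream (2.64, 4.80 and 4.10). Related terms did not share the high count. Response to nitrate had 2 of 17 genes (11.8%), response to ammonium ion 1 of 12 (8.3%), nitrate transport 1 of 4 and response to starvation 7 of 40 (17.5%).

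Brassinosteroid mediated signalling had 6 of 23 genes, among them OsBZR3, of the BZR family of transcription factors, with a region 71 bp before the start (3.11, 4.16 and 3.21). Inflorescence development had 12 of 49. They include OsDST, a zinc-finger gene known to act on cytokinin oxidase and grain number, at 676 bp upstream (2.88, 5.49 and 3.99). The growth-regulating factor gene OsGRF6 had even folds of 3.51, 3.66 and 3.90 at 655 bp upstream. OsPCF2, of the TCP family, had 2.60, 4.85 and 3.58 at 543 bp upstream. Flower development had 4 of 15: OsMADS18, OsBRI1, HOX10 and OsVAL1, a B3-domain gene with 3.25, 4.07 and 3.47 at 708 bp. All 4 regions were upstream of the named gene, which was the nearest to each. By the nearest gene, 61.8% of all intergenic regions were upstream, and a count this small cannot be told from that share. The HOX10 region is mixed, since it is also 1193 bp past the end of Os03g0109450. Of the 7 auxin signalling genes (of 27) beside an intergenic region, 4 were the nearest gene to it. Shares of these brassinosteroid, inflorescence, flower and auxin terms ran from 24.5% to 26.7%, near the 21.4% of all genes.

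Most of the 554 genes had no other confident region. A region that touches the gene was also listed for 46 (8.3%, 6.3 to 10.9), and 21 (3.8%) had one across the start. For 28 genes 2 intergenic regions were listed, the most for any gene. Os06g0204100 had them on both sides, 2739 bp before its start (3.11, 2.57 and 2.35) and 2630 bp past its end (5.26, 4.05 and 4.45), so that the one beyond the end was the stronger in every list.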

How the data were processed

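Panicle chromatin was fixed with 1% formaldehyde and cut by micrococcal nuclease to 150 to 900 bp, per the labels' protocols. Each immunoprecipitation used 8 µg of chromatin, with 6 µg of antibody for OsMADS2. Tools named in the submitters' processing notes are MACS2, Bowtie2, fastp, deepTools and SAMtools. Coordinates are as deposited. Their genome build and the tools' settings were not given in the sources used here. The authors deposited read counts per library and 3 lists of peaks called from single pairs of an IP and a mock library. Each peak has a fold enrichment over mock (a ratio) and −log10 values of p and q, deposited by the authors. The authors merged peaks found in all 3 lists and assigned them to nearby genes, per the file headers. The −log10 false discovery rates of gene ontology terms are the authors' deposited values and were not used, only the gene lists.

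Regions were classed by their deposited positions, and flanking orientation came from the nearest row on each side. A peak matched a region at 1 bp of overlap or more, and the highest fold stood for the region. Shares have Wilson 95% intervals and medians order-statistic 95% intervals. No test was made: the folds come from single library pairs, and regions are not replicates. Classing and matching were tested on simulated regions. Region sequence was not analysed here. Named genes were the 5 regions per class of highest lower fold, members of 16 symbol lists (the 4 of highest lower fold where a list had over 6), the 3 closest and 3 farthest regions, and genes with several regions, of which examples are given. The regions and lists were chosen with earlier results of these data known. Alternatives covered gene rows, distance, q, fold and overlap. Software was matplotlib 3.10.9, pandas 2.3.3, numpy 2.4.6 and scipy 1.17.1 under Python 3.11.15.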

Additional observations from a re-analysis of the deposited data

How the results depend on the processing

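The number of intergenic regions (330) stayed at 297 to 330 under the nearest-gene, distance, q and overlap alternatives, and was 108 with a fold of at least 3 in each list. With only the nearest gene row used, upstream regions numbered 204 and downstream regions 126, since mixed regions then fall into one or the other. Measured from the region's midpoint, the upstream-only median distance was 1218 bp. With gene rows within 2 kb there were 13 divergent, 1 convergent and 29 tandem pairs. The 30 regions with a fold of at least 4 in both replicate calls became 120 at a fold of at least 3, and 60 to 100 with a replicate left out. With IP5 over mock 6 the count was 41. Of the 57 named regions, the lower fold moved by more than the SD of its 2 calls in 17 with IP5 over mock 6, in 1 with the peak of longest overlap and in 0 when the peak had to lie mostly inside. No paired analysis was possible because no result comes from a test; the 2 replicate calls already set libraries of the same number against each other. Folds rest on single library pairs, and IP5 had the fewest unique reads.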

Other observations

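Deposited folds, rounded to 3 decimals, recurred between intergenic regions. In IP5 over mock 5, 90 of the 330 regions (27.3%) had a fold equal, to 3 decimals, to that of another intergenic region, and the 330 folds took 280 distinct values. In IP6 over mock 6 it was 73 regions (22.1%). Regions close in rank by fold can therefore be tied or nearly so. Nearest genes carried a symbol in 47.0% (38.8 to 55.4) of upstream-only regions, 39.4% (28.5 to 51.5) of downstream-only and 30.8% (23.5 to 39.2) of mixed regions, against 42.2% of regions across a gene start.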
